A study of Salmo salar with 51 samples.

Results

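Genes with an apoptosis-related annotation were followed through the development of Atlantic salmon (Salmo salar), each by the probe named for it on an oligonucleotide array: Cebpb (C210R169), NLRP3 (C168R113), Mal (C073R127), Bnip3 (C037R117) and CIDEC (C226R150). These are 5 of the 43689 probes of the array and 5 of the 20964 probes that were bright enough to be tested, and all 5 were chosen by name. The study had listed all 5 as changed between 10 and 15 dpf (days post fertilization) on these same arrays. It had also listed CIDEC for 2 vs. 5 dpf, Bnip3 and Cebpb for 5 vs. 10 dpf and Mal for 83 vs. 89 dpf, so the values of these comparisons describe the probes and are not independent evidence of a change.

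Apoptosis is the ordered self-destruction of cells. It shapes embryonic tissues and is held in check by the balance between death-promoting and protective proteins of the BCL2 family, upstream of the caspases that dismantle the cell. The genes followed here sit at the edges of that pathway, and each is also known for other work in mammals. Cebpb is a transcription factor of liver, fat and white blood cells, NLRP3 is a sensor of the innate immune system, Mal is a membrane protein of myelin and lymphocytes, Bnip3 is a mitochondrial member of the BCL2 family, and CIDEC coats lipid droplets.

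Whole individuals of the McConnell (Mowi) strain, raised in fresh water from hatchery eggs, were sampled at 2, 5, 10, 15, 20, 25, 30, 35, 41, 47, 53, 59, 65, 71, 77, 83 and 89 dpf. Each time point had 3 individuals, each on an array of its own. The stages ran from blastulation at 2 dpf, gastrulation at 5 dpf and somitogenesis at 10 dpf through the formation of yolk sac vessels at 15 and 20 dpf and of the caudal rays at 25 to 35 dpf to alevins from 41 dpf, fry from 65 dpf and parr from 77 dpf. Hatching fell between the 35 and 41 dpf samples and the end of the yolk sac between 65 and 71 dpf. The Cy5 channel of each of the 51 arrays held the individual and the Cy3 channel held 1 common pool of all 17 time points, to which 2 dpf contributed less material, so each value is a log2 ratio of an individual to that pool. Because whole animals were used, a change in the number of cells of a type and a change in RNA per cell cannot be told apart, and ratios are compared between time points of a probe and not between probes.

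A Cy5 signal under 500 was treated as dim. Where all individuals of 1 side were under 500, the fold is a bound or is not given. Where only some were, the fitted fold is given and rests in part on dim signals. Cebpb was under 500 on 5 of 51 arrays, NLRP3 on 4, Mal on 5, Bnip3 on 16 and CIDEC on 36. Cebpb, NLRP3 and Mal were under 500 in all 3 individuals at 2 dpf alone, with further dim arrays at 20 and 35 dpf (Cebpb, 1 each) and at 5 dpf (NLRP3 1, Mal 2). Bnip3 was under 500 in all 3 individuals at 2, 5, 10 and 41 dpf, in 2 at 15 dpf and in 1 each at 20 and 35 dpf. CIDEC was the dimmest of the 5 against this limit. All 3 of its individuals were under 500 at 15, 20, 35, 41, 47, 53, 59 and 65 dpf. The count was 2 of 3 at 5, 25, 30, 71 and 89 dpf, and 1 at 77 and 83 dpf. This left 2 and 10 dpf as the time points with 3 individuals of at least 500 in Cy5. The limit was not applied to Cy3, which was at most 537.5 for CIDEC and at least 991.5 for the other 4 genes. None of the spots of these probes was flagged. The brightness of the slides moved with these counts. The median Cy5 signal of an array was 304.5 to 601 on the 24 arrays of slides 1 to 6 and 124.5 to 323.5 on the 27 arrays of slides 7 to 14, and the arrays under 500 on slides 1 to 6 numbered 0 for Cebpb, NLRP3 and Mal, 4 for Bnip3 and 14 for CIDEC. All 2 dpf arrays lay on slides 12 to 14 and all 10 dpf arrays on slides 3 and 5. The part of slide brightness in the dim calls was not tested.

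All 5 genes differed between the 17 time points (moderated F test of limma over all 51 arrays, adjusted p between 4.83e-15 for Bnip3 and 4.11e-06 for CIDEC), as did 87.1% of all probes tested. The range of time point means was 4.17 on the log2 scale (17.98-fold) for Cebpb and 3.27 (9.67-fold) for Mal. Both were under 500 in all 3 individuals of 2 dpf, so the lower ends of these ranges are uncertain. For Bnip3, NLRP3 and CIDEC the lowest mean came from a time point with all 3 individuals under 500, so no range is given. A gene was called changed where limma gave a Benjamini-Hochberg adjusted p under 0.05 over all probes tested and at least a 2-fold change. Of the 80 pairs of a gene and a step to the next time point, 10 were called (12.5%), 6 higher and 4 lower, against 4.79% of all such pairs. The study had listed the 5 probes as changed on these same arrays, so nothing is read from the higher share. Of the 10 calls, 8 lay between 2 and 15 dpf and 2 in the 13 later steps. The study reports that RNA was scarce in its earliest samples, which needed further extraction and repeated labelling. The last of these samples were those of 10 dpf, so the step from 10 to 15 dpf also compares samples of different handling. The part of handling in the calls was not tested. Each of the 5 genes was called in at least 1 step, as were 57.3% of all probes.

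**Figure D1:**
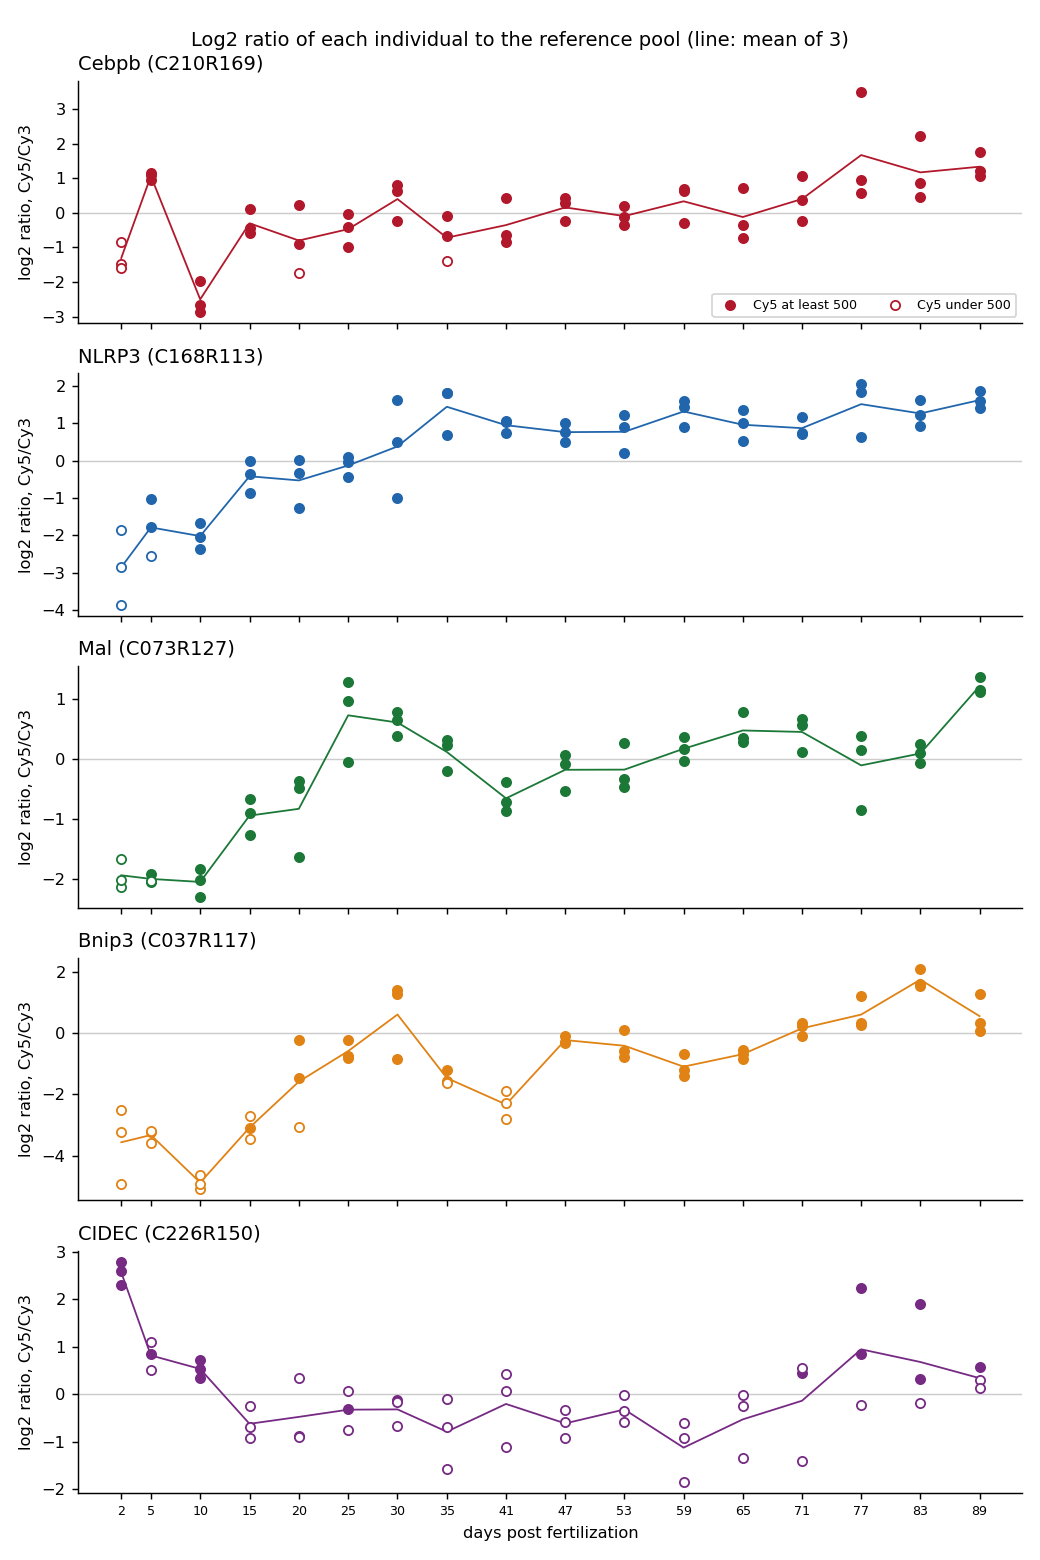
Log2 ratio of each individual to the reference pool (y axis) against days post fertilization (x axis) for the 5 probes, with 1 panel each. Points are individuals, filled where Cy5 was at least 500 and open where it was under 500, and lines join the means of 3; Cebpb has a spike at 5 dpf, NLRP3, Mal and Bnip3 climb from their early lows, and CIDEC starts at its highest level at 2 dpf and is mostly open afterwards.

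Cebpb showed the sharpest early swing. Its log2 ratios were -1.48, -1.60 and -0.83 in the 3 individuals of 2 dpf and 0.94, 1.15 and 1.10 at 5 dpf. They were -2.87, -1.97 and -2.66 at 10 dpf and -0.57, 0.10 and -0.44 at 15 dpf. No individual of 1 of these time points overlapped with those of the next. The gene rose at least 3.77-fold from 2 to 5 dpf (log2 change 2.37 ± 0.53, SE, adjusted p 0.000305), fell 11.8-fold from 5 to 10 dpf (log2 change -3.56 ± 0.53, adjusted p 1.57e-06) and rose 4.59-fold from 10 to 15 dpf (log2 change 2.20 ± 0.53, adjusted p 0.00329). The lower bound on the earliest rise stands because Cy5 at 2 dpf was only 215 to 281, against 2960.5 to 6558 at 5 dpf. The 2 dpf and 5 dpf samples shared slide 14, where the difference was 1.96 between 1 and 2 arrays.

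After 15 dpf none of the 13 steps was called for Cebpb, and its spread between individuals was the widest of the 5, with a median SD of 0.55. The highest mean was at 77 dpf (1.67 ± 1.59, SD, n = 3), followed by 89 dpf (1.33 ± 0.36), 83 dpf (1.17 ± 0.92) and 5 dpf (1.06 ± 0.11), and these overlapped. The lowest mean was at 10 dpf (-2.50 ± 0.47), which lay clear of the next lowest, 2 dpf (-1.30 ± 0.41). That was the only pair of neighbours of the 16 in its order that did not overlap. All 3 individuals of 2 dpf were under 500, so the order of 2 and 10 dpf is uncertain. At 89 dpf the individuals stood at 1.20, 1.05 and 1.74, above all of those of 15 dpf and of 41 dpf (-0.63, 0.43 and -0.86). The gene was at least 4.35-fold higher at 89 than at 2 dpf (log2 change 2.64, adjusted p 3.42e-05), 3.11-fold higher than at 15 dpf (1.64, adjusted p 0.0128) and 3.22-fold higher than at 41 dpf (1.69, adjusted p 0.0372). The rise from 15 dpf was no longer called without replicate 3 of 89 dpf (1.43, adjusted p 0.0623). The rise from 41 dpf ended with the slide as a fixed block (1.83, adjusted p 0.099) and without any of 5 single arrays, namely replicate 1 or 3 of 41 dpf (1.55, adjusted p 0.136, and 1.44, 0.133) or replicate 1, 2 or 3 of 89 dpf (1.75, 0.077; 1.83, 0.0504; and 1.48, 0.165).

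The difference between 2 and 10 dpf was at the threshold for Cebpb (log2 change -1.20, adjusted p 0.05), and no fold is given since all 3 individuals of 2 dpf were under 500. It was lost without any of 5 of the 6 arrays. The adjusted p was 0.0668, 0.0539 and 0.167 without replicate 1, 2 or 3 of 2 dpf (log2 changes -1.28, -1.34 and -0.96) and 0.151 and 0.114 without replicate 1 or 3 of 10 dpf (-1.01 and -1.11). It also fell to -0.40 (adjusted p 0.53) when arrays were median-centred and to -0.32 (adjusted p 0.611) when the Cy5 channel was used alone.

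The other CEBPB probe (C190R162) followed Cebpb with an r of 0.92 over the 17 time point means. It had the same early spike, with a rise of at least 4.08-fold from 2 to 5 dpf (log2 change 2.99 ± 0.46, adjusted p 1.24e-06) and a fall of 16.1-fold from 5 to 10 dpf (-4.01 ± 0.46, adjusted p 8.83e-09; 1 of 3 individuals of 10 dpf under 500). Its difference between 10 and 15 dpf was not called. The relatives of the gene had courses of their own. Both probes of the delta form, Cebpd (C026R028) and CEBPD (C044R110), rose at least 2.58-fold and 2.38-fold from 2 to 5 dpf and fell 2.77-fold (adjusted p 0.0168) and 2.99-fold (adjusted p 0.0297, with 1 of 3 individuals of 15 dpf under 500) from 10 to 15 dpf, where Cebpb rose. CEBPA (C154R149), the alpha form known for its role in liver and fat, rose at least 1.49-fold from 2 to 5 dpf and a further 4.39-fold (2.13 ± 0.41, adjusted p 0.000125) from 5 to 10 dpf, the step at which Cebpb fell. The differences between these probes were not themselves tested.

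NLRP3, which in mammals assembles the inflammasome that activates caspase-1, had its lowest mean at 2 dpf (-2.85 ± 0.997, SD, n = 3) and its highest at 89 dpf (1.62 ± 0.23). The individuals stood at -3.84, -1.85 and -2.86 at 2 dpf, with Cy5 of 62 to 244.5. They stood at -1.03, -1.78 and -2.54 at 5 dpf and at -2.04, -1.66 and -2.35 at 10 dpf. These early time points overlapped. At 15 dpf the values were -0.02, -0.37 and -0.87, all above those of 10 dpf, and this was the only step called for the gene (3.03-fold higher; log2 change 1.60 ± 0.47, adjusted p 0.0167). After that the spread between individuals was wide at 30 dpf (-1.0, 0.51 and 1.62) and 35 dpf (1.82, 0.69 and 1.80). All of the 16 pairs of neighbours in its order overlapped. From 35 dpf onwards every mean lay between 0.76 and 1.62.

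Over longer spans the 89 dpf individuals (1.59, 1.86 and 1.39) lay above every individual of 2 and of 15 dpf. NLRP3 was at least 5.71-fold higher at 89 than at 2 dpf (log2 change 4.47 ± 0.47, adjusted p 6.73e-11) and 4.10-fold higher than at 15 dpf (2.03 ± 0.47, adjusted p 0.000554). With the slide as a fixed block the latter was 1.41 with an adjusted p of 0.0536, and on slide 6, which held 1 array of each, it was 2.26.

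A different probe with the same name, Nlrp3 (C167R170), had another course. It stood at 1.26 ± 0.16 at 2 dpf, its 2 highest means being at 2 and 83 dpf (1.28 ± 0.34), and fell 2.13-fold from 2 to 5 dpf (log2 change -1.09, adjusted p 0.00654, with 1 of 3 individuals of 2 dpf under 500) and at least 4.65-fold from 5 to 10 dpf (-2.71, adjusted p 3.5e-08). At 10 dpf it was at its lowest (-2.54 ± 0.36). From 10 to 15 dpf it rose at least 1.32-fold (1.00, adjusted p 0.037), and from 15 to 89 dpf 4.25-fold (2.09, adjusted p 2.97e-06), with 2 of 3 individuals of 15 dpf under 500. Over the 17 time points its r with NLRP3 was 0.30, and its r with NLRC5 (C051R046), a relative known in mammals for the control of MHC class I genes, was 0.80. NLRC5 fell 3.45-fold from 2 to 5 dpf (adjusted p 0.0138) and at least 4.43-fold from 5 to 10 dpf (adjusted p 4.06e-08). It reached 500 in all 3 individuals only at 2 and 5 dpf. The probe was thus tested through the time points it fell from, and these falls are a description. Whether the probes named NLRP3 and Nlrp3 read copies of 1 gene or different genes was not tested.

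Markers of leukocytes were followed beside NLRP3. The list held 9 probes of MPO, ITGB2, PTPN6, Aif1, Cd74 and MRC1, of which 8 were tested, and in these 3 rose and 0 fell from 10 to 15 dpf, 7 rose and 1 fell from 2 to 89 dpf, and 3 rose and 0 fell from 15 to 89 dpf, spans in which 9.31%, 36.2% and 17.4% of all probes were called higher. From 2 to 10 dpf 2 rose and 4 fell, against 51.1% of all probes called and 24.4% called lower, with 1 of these calls under 500 on both sides. The summed normalized Cy5 signal of the list was 6894 to 7916 at 2 dpf, 5073 to 5374 at 10 dpf and 11741 to 13544 at 15 dpf. It was 9227 to 11640 at 35 dpf, where NLRP3 had a mean of 1.44, and 31672 to 34719 at 89 dpf. Of the 9 probes, 6 were under 500 on all arrays of 2 dpf, 4 at 10 dpf and 0 at 15 and 89 dpf. MPO (C152R082), the peroxidase of neutrophil granules, rose by at least 12.6-fold from 10 to 15 dpf (adjusted p 1.27e-09). Cd74 (C155R006), the invariant chain of MHC class II, rose 19.05-fold from 15 to 89 dpf (adjusted p 4.17e-13), with 1 of 3 individuals of 15 dpf under 500. The part of leukocyte number in the NLRP3 values was not tested.

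Mal, a small membrane protein of lipid rafts in myelin, lymphocytes and secretory epithelia, was low through 10 dpf and then rose in steps. Its means were -1.94 ± 0.25 at 2 dpf, -2.0 ± 0.07 at 5 dpf and -2.06 ± 0.24 at 10 dpf, the 3 lowest of the 17. All 3 individuals of 2 dpf and 2 of 3 of 5 dpf were under 500, so a change before 10 dpf could not be measured. The 10 dpf individuals stood at -2.02, -1.84 and -2.31, those of 15 dpf at -0.67, -1.27 and -0.90, and those of 20 dpf at -0.37, -0.49 and -1.64. At 25 dpf they reached -0.06, 1.28 and 0.97. The groups of 10 and 15 dpf did not overlap, nor did those of 20 and 25 dpf. The rise from 10 to 15 dpf was 2.16-fold (log2 change 1.11 ± 0.31, adjusted p 0.0117) and that from 20 to 25 dpf 2.96-fold (1.56 ± 0.31, adjusted p 0.00506). For the latter step, 0.650% of all probes were called. It was lost with the slide as a fixed block (1.58, adjusted p 0.114) and without replicate 3 of 20 dpf (1.16, adjusted p 0.12), replicate 2 of 25 dpf (1.29, 0.116) or replicate 3 of 25 dpf (1.45, 0.0653).

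From 25 dpf the course of Mal was not one of steady increase. The mean was 0.73 ± 0.70 at 25 dpf, -0.66 ± 0.25 at 41 dpf, just after hatching, 0.48 ± 0.27 at 65 dpf, -0.11 ± 0.66 at 77 dpf and 1.22 ± 0.14 at 89 dpf. The individuals were 0.32, -0.19 and 0.23 at 35 dpf and -0.72, -0.39 and -0.87 at 41 dpf, and did not overlap. Between the pooled 30 and 35 dpf samples and the pooled 41 and 47 dpf samples Mal differed by -0.78 ± 0.22 on the log2 scale (adjusted p 0.0382), which is 1.72-fold and under the 2-fold minimum. The 89 dpf individuals, at 1.13, 1.15 and 1.37, lay above all those of 83 dpf (0.10, 0.25 and -0.07), with a difference of 1.13 and an adjusted p of 0.0628. Mal was at least 5.32-fold higher at 89 than at 2 dpf (3.16 ± 0.31, adjusted p 1.19e-11), 4.48-fold higher than at 15 dpf (2.16, adjusted p 3.63e-07) and 3.67-fold higher than at 41 dpf (1.88, adjusted p 4.79e-05).

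The myelin markers (6 probes, among them MBP, Mog and PMP22) were followed beside Mal. From 10 to 15 dpf 1 of the 6 rose and 0 fell, against 9.31% of all probes called higher, and from 20 to 25 dpf their summed signal was 4217 to 9069 and then 6245 to 8199, which overlapped. It was 32037 to 37064 at 89 dpf. Between 15 and 89 dpf 4 rose and 0 fell, against 17.4% of all probes called higher, and around hatching, where the fitted difference of Mal was negative and 1.94% of all probes were called, 2 rose and 0 fell. Of the 6 probes, 4 were under 500 on all arrays of 10 to 30 dpf. The part of myelin-forming cells in the Mal values was not tested.

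Bnip3 encodes a BCL2-family protein of the mitochondrial outer membrane that in mammals takes part in cell death and in the removal of mitochondria and is induced under low oxygen. Bnip3 had its lowest mean ratio at 10 dpf (-4.88 ± 0.24) and its highest at 83 dpf (1.74 ± 0.30), a time point clear of all others in its order. All individuals of 2, 5 and 10 dpf were under 500, so the order of these 3 time points is uncertain. The 10 dpf individuals stood at -5.10, -4.62 and -4.92 with Cy5 of 193 to 209. Values at 5 dpf were -3.58, -3.23 and -3.19, and at 15 dpf -2.72, -3.45 and -3.09. The groups did not overlap, but all of these arrays except 1 at 15 dpf were under 500. Bnip3 differed by -1.55 ± 0.50 on the log2 scale between 5 and 10 dpf (adjusted p 0.019), with both sides under 500 and no fold given, and rose at least 1.51-fold from 10 to 15 dpf (fitted log2 change 1.79 ± 0.50, adjusted p 0.0117).

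The 5 vs. 10 dpf difference of Bnip3 was no longer called with the slide as a fixed block (-2.38, adjusted p 0.0754), with Cy5 alone (-1.05, adjusted p 0.133), or without replicate 2 or 3 of 5 dpf (-1.50, 0.0565, and -1.48, 0.0579) or replicate 1 or 3 of 10 dpf (-1.44, 0.0675, and -1.53, 0.0511). Between 2 dpf (-3.25, -2.52 and -4.93) and 10 dpf the groups overlapped and both were under 500, with a difference of -1.31 and an adjusted p of 0.0228. This too was lost without replicate 1 or 2 of 2 dpf (-1.16, 0.0799, and -0.79, 0.208) or replicate 1 or 3 of 10 dpf (-1.21, 0.0692, and -1.29, 0.0518), and was -0.70 (adjusted p 0.29) with median-centred arrays and -0.19 (adjusted p 0.773) with Cy5 alone.

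The means of Bnip3 were higher at each time point from 15 to 30 dpf and lower again before hatching. The individuals of 20 dpf were spread over -1.46, -3.08 and -0.23, those of 25 dpf stood at -0.74, -0.81 and -0.23, and those of 30 dpf at -0.86, 1.26 and 1.41. At 35 dpf they stood at -1.64, -1.20 and -1.57 and at 41 dpf at -1.91, -2.29 and -2.80. Every individual of 35 dpf was below every individual of 30 dpf, and the fall was 4.21-fold (log2 change -2.07 ± 0.50, adjusted p 0.0285), in a step where 0.927% of all probes were called. It was not called with the slide as a fixed block (-2.38, adjusted p 0.157) or without replicate 2 or 3 of 30 dpf (-1.74, 0.262, and -1.67, 0.141) or replicate 1 or 3 of 35 dpf (-1.99, 0.138, and -2.02, 0.106). At 47 dpf the values of -0.09, -0.28 and -0.32 lay above all of 41 dpf, with a difference of 2.10 and an adjusted p of 0.161.

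The highest mean of Bnip3 fell in the last weeks. The means were -0.69 ± 0.16 at 65 dpf, 0.15 ± 0.23 at 71 dpf, 0.60 ± 0.53 at 77 dpf, 1.74 ± 0.30 at 83 dpf and 0.55 ± 0.64 at 89 dpf. The 83 dpf individuals (2.08, 1.61 and 1.53) were above all others of the series for this probe. Neither step beside this time point was called, with a difference of 1.14 from 77 to 83 dpf (adjusted p 0.41) and -1.19 from 83 to 89 dpf (adjusted p 0.4). Between the pooled 59 and 65 dpf samples and the pooled 71 and 77 dpf samples the difference was 1.27 ± 0.35, with no overlap and an adjusted p of 0.0965. Bnip3 was at least 4.11-fold higher at 89 than at 2 dpf (4.12 ± 0.50, adjusted p 2.51e-09), 12.4-fold higher than at 15 dpf (3.64, adjusted p 1.7e-07, with 2 of 3 individuals of 15 dpf under 500) and at least 6.06-fold higher than at 41 dpf (2.88, adjusted p 0.000104).

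Bnip3 was the gene with the closest match between its probes. C143R028 and C116R035, both named Bnip3, had r values of 0.99 and 0.97 with it over the 17 time points. Both rose from 15 to 20 dpf, a step in which 1.43% of all probes were called, by 4.93-fold (adjusted p 0.00623, with 2 of 3 individuals of 15 dpf and 1 of 20 dpf under 500) and at least 2.35-fold (adjusted p 0.0101). C037R117 itself was not called in this step (1.50, adjusted p 0.164), and its individuals overlapped. Replicate 3 of 20 dpf stood at 0.20 for C143R028 and -0.16 for C116R035, against means of -1.87 and -1.59 in the other 2 individuals. Fits without this array were not run for these probes. From 30 to 35 dpf C143R028 and C116R035 fell 7.12-fold (-2.83 ± 0.50, adjusted p 0.00145) and 6.79-fold (-2.76 ± 0.45, adjusted p 0.00067). The drop before hatching was thus called for all 3 Bnip3 probes, each with 1 of 3 individuals of 35 dpf under 500. Of 6 probes for genes of oxygen sensing and mitophagy (hif1a, EGLN1, Egln3 and 3 forms of MAP1LC3), 0 were called from 10 to 15 dpf, from 15 to 20 dpf or around hatching. MAP1LC3B (C131R044), a protein of autophagosome membranes, rose 2.47-fold from 77 to 83 dpf (1.30, adjusted p 0.0124) and fell 3.01-fold from 83 to 89 dpf (-1.59, adjusted p 0.000946), steps in which 0.560% and 0.943% of all probes were called. MAP1LC3B was the only 1 of the 6 probes called in either step, and the list medians of the log2 changes were 0.13 and -0.13. The summed normalized Cy5 signal of the 6 probes was 12418 to 14628 at 77 dpf, 17336 to 19673 at 83 dpf, where Bnip3 had its highest mean, and 12409 to 14433 at 89 dpf. The sum was also 17363 to 17758 at 5 dpf and 13998 to 15522 at 10 dpf, where Bnip3 was under 500 in all individuals. The part of low oxygen in the Bnip3 values was not tested. From 2 to 10 dpf 1 of the 6 probes rose and 2 fell, against 51.1% of all probes called and 24.4% called lower, so nothing is read from the count. The prolyl hydroxylases that mark HIF1A for breakdown, EGLN1 (C212R089) and Egln3 (C218R055), fell at least 8.49-fold (adjusted p 4.52e-11) and at least 8.96-fold (adjusted p 1.64e-08). MAP1LC3C (C022R040), a relative of MAP1LC3B, rose at least 5.99-fold (adjusted p 1.8e-13), and hif1a was not called.

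CIDEC, which in mammals enlarges lipid droplets in fat cells and is named as a cell death activator, had its highest level in the blastula. Its log2 ratios were 2.30, 2.60 and 2.79 at 2 dpf, 0.85, 0.51 and 1.09 at 5 dpf and 0.53, 0.34 and 0.73 at 10 dpf. The Cy3 signal under these ratios was dim as well, at 240.5 to 388 at 2 dpf and 374 to 406.5 at 10 dpf. The CIDEC folds thus rest on a dim reference signal, and its part in them was not tested. The 2 dpf mean (2.56 ± 0.25) was the highest of the 17 and did not overlap with any neighbour in the order. CIDEC fell 3.35-fold from 2 to 5 dpf (log2 change -1.75 ± 0.51, adjusted p 0.0046), and was 4.08-fold lower at 10 dpf (-2.03, adjusted p 0.000809) and 4.67-fold lower at 89 dpf (-2.22, adjusted p 0.000206) than at 2 dpf, with 2 of 3 individuals under 500 at 5 and at 89 dpf. The probe reached 500 in all 3 individuals only at 2 and 10 dpf, so it entered the test through its highest time point and 10 dpf. The falls from 2 dpf are therefore a description and not independent evidence. These 3 calls held without each single array and with the slide as a fixed block, but the fall from 2 to 5 dpf was not called without replicate 2 of every time point (-1.57, adjusted p 0.0698). On slide 14 the 2 vs. 5 dpf difference was -1.99 between 1 and 2 arrays. Raw Cy5 did not fall with the ratio, being 702 to 1136 at 2 dpf and 621 to 1588 at 10 dpf, on slides of different brightness.

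From 15 dpf on CIDEC was mostly below the limit, and its means from 15 to 71 dpf lay between -1.12 and -0.14. The 15 dpf individuals (-0.25, -0.69 and -0.92) were below all those of 10 dpf, with a difference of -1.15 ± 0.51 and an adjusted p of 0.127. Means were above 0 again at 77 dpf (0.95 ± 1.23), 83 dpf (0.68 ± 1.09) and 89 dpf (0.34 ± 0.23). These late values were uneven between individuals, at 2.23, -0.24 and 0.85 on 77 dpf and 1.90, 0.32 and -0.18 on 83 dpf. Between the pooled 59 and 65 dpf and the pooled 71 and 77 dpf samples the difference was 1.23 ± 0.36 with an adjusted p of 0.117.

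Its relative Cidea (C014R040), a lipid droplet protein of brown fat and liver in mammals, also had its highest mean at 2 dpf. Cidea fell 3.67-fold from 2 to 5 dpf (log2 change -1.88 ± 0.33, adjusted p 8.25e-06) and a further 2.21-fold from 5 to 10 dpf (-1.15, adjusted p 0.00748), and at 89 dpf was 28.6-fold lower than at 2 dpf (-4.84, adjusted p 4.95e-16), with 2 of 3 individuals of 89 dpf under 500. Pearson's r between CIDEC and Cidea was 0.65 over the 17 time points while Spearman's rho was 0.03. The 10 probes for lipid storage and transport (ADFP, FABP4, LPL, APOB and PPARD) gave 2 rises and 5 falls from 2 to 5 dpf and 5 rises and 4 falls from 2 to 10 dpf, where 39.8% and 51.1% of all probes were called. Adipophilin, ADFP (C049R002), which coats lipid droplets as CIDEC does, fell at least 32.5-fold from 2 to 10 dpf (adjusted p 6.46e-15), and its other probe (C159R023) fell 43.8-fold (-5.45, adjusted p 4.21e-11). Over the same span APOB (C011R035), the structural protein of lipoproteins, rose at least 25.4-fold (adjusted p 8.63e-16).

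**Figure D2:**
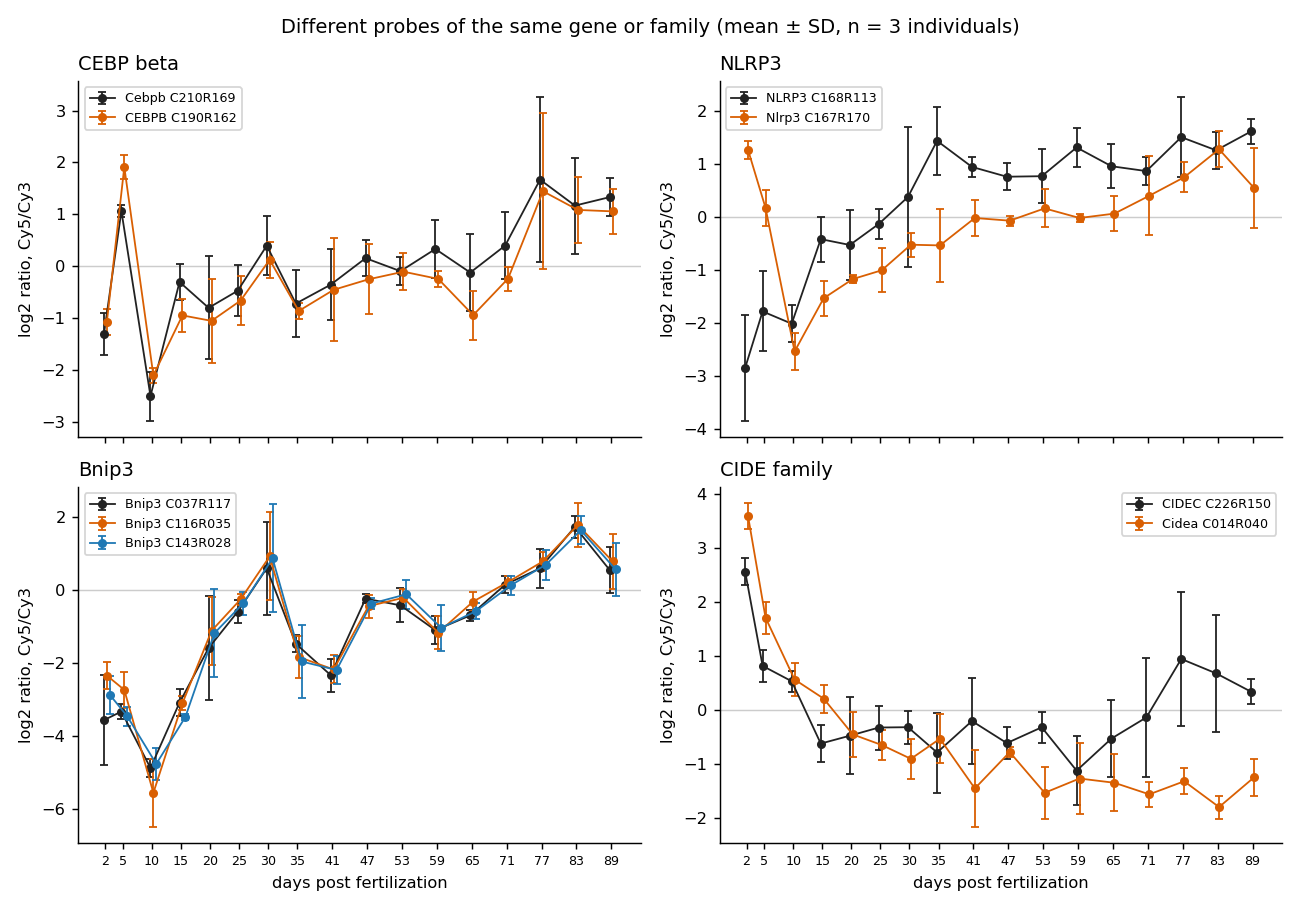
Mean log2 ratio ± SD of 3 individuals (y axis) against days post fertilization (x axis) for different probes of the same gene or family, with 1 panel each for CEBP beta, NLRP3, Bnip3 and the CIDE family. The CEBP beta probes and the 3 Bnip3 probes track each other (r of 0.92, and of 0.97 and 0.99 with C037R117). At 2 dpf NLRP3 has its lowest mean (-2.85, all 3 individuals under 500), while Nlrp3 has 1 of its 2 highest means (1.26, 1 of 3 under 500).

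Across the 5 genes, the step from 10 to 15 dpf, from somitogenesis to the vascularized yolk sac, held the most calls. Cebpb, NLRP3, Mal and Bnip3 rose, CIDEC was not called, and in each of the 5 the individuals of both time points did not overlap, as was so for 34.7% of all probes tested whose spots of both time points were unflagged. Of all probes tested, 12.0% were called in this step, 9.31% as higher and 2.64% as lower. The part of the repeated extraction and labelling of the earlier samples in this step was not tested. Since the study had listed all 5 for this step, nothing is read from the count. With the slide as a fixed block the rise of Cebpb remained called, while NLRP3 (1.58, adjusted p 0.148), Mal (1.07, adjusted p 0.0991) and Bnip3 (2.21, adjusted p 0.0829) did not, and no slide held arrays of both time points.

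The 10 vs. 15 dpf calls also depended on single arrays and on the scaling. NLRP3 lost its call without replicate 1 or 3 of 10 dpf (1.59, adjusted p 0.0533, and 1.43, 0.0809) or replicate 1 of 15 dpf (1.40, 0.107), Mal without replicate 3 of 10 dpf (0.98, 0.068) or replicate 1 of 15 dpf (0.97, 0.0835), and Bnip3 without replicate 1 of 10 dpf (1.69, 0.055) or replicate 1 of 15 dpf (1.61, 0.0767). The 15 dpf replicate 1 array differed more than any other from the individuals of its own time point over all tested probes. The median change of all tested probes was 0.09 with loess, -0.25 with median centring and -0.09 with Cy5 alone, and the share of calls that were higher was 77.9%, 41.2% and 55%. With median centring Cebpb kept its call, and NLRP3 (1.14, adjusted p 0.105), Mal (0.68, adjusted p 0.205) and Bnip3 (1.54, adjusted p 0.0559) did not. With Cy5 alone none of the 4 kept it, the values being 1.39 (adjusted p 0.0672) for Cebpb, 1.15 (0.0935) for NLRP3, 0.88 (0.0472, under 2-fold) for Mal and 0.74 (0.391) for Bnip3. Cebpb kept its call without each single array but not without replicate 2 of every time point (2.26, adjusted p 0.0609). The direction was upwards for all 4 genes under every scaling tried.

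The remaining early steps split the genes. From 2 to 5 dpf Cebpb rose and CIDEC fell, in a step where 39.8% of all probes were called. NLRP3 differed by 1.06 with an adjusted p of 0.0571. From 5 to 10 dpf Cebpb and Bnip3 were called lower, against 20.3% of all probes called and 8.47% called lower. Between 2 and 10 dpf Cebpb, Bnip3 and CIDEC were called lower, against 51.1% of all probes called and 24.4% called lower, and 0 of the 5 were called higher. Bnip3 was under 500 in all individuals of 2, 5 and 10 dpf, and Cebpb in all of 2 dpf. The share of calls that were higher over all probes was 50.2% for 2 vs. 5 dpf and 52.3% for 2 vs. 10 dpf, and 82.6% and 77.7% with median-centred arrays.

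Over the long spans the genes were mostly higher at 89 dpf. From 2 to 89 dpf Cebpb, NLRP3, Mal and Bnip3 were called higher and CIDEC lower, where 61.4% of all probes were called and 36.2% called higher. From 15 to 89 dpf the same 4 genes were called higher, against 31.5% and 17.4%. From 41 to 89 dpf Cebpb, Mal and Bnip3 were called higher, against 7.72% and 4.67%. In all 15 of the 20 long-span tests were called. The spans share time points, so their counts are not independent of each other. On slide 6, which held 1 array of 15 and 1 of 89 dpf, the differences were 2.18 for Cebpb, 2.26 for NLRP3, 2.27 for Mal and 4.36 for Bnip3.

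Hatching and the end of the yolk sac brought 0 calls among the 5 genes by limma, against 1.94% and 0.178% of all probes. Around hatching Mal had an unadjusted p of 0.000911 and Bnip3 of 0.0213 (difference -0.85 ± 0.35, adjusted p 0.244). Cebpb (0.06 ± 0.37), NLRP3 (-0.05 ± 0.33) and CIDEC (0.14 ± 0.36) differed by less than their standard errors. Around the end of the yolk sac the unadjusted p was 0.000877 for Bnip3, 0.00149 for CIDEC and 0.0176 for Cebpb. These 3 had higher values afterwards, while Mal and NLRP3 had an unadjusted p of 0.493 and 0.876. The difference of Cebpb was 0.93 ± 0.37 (adjusted p 0.294). By the methods' t-test at its own threshold 0 of the 5 were called around hatching and 1 around yolk absorption. The shares of all probes at these unadjusted limits were not computed, so nothing is read from them.

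**Figure D3:**
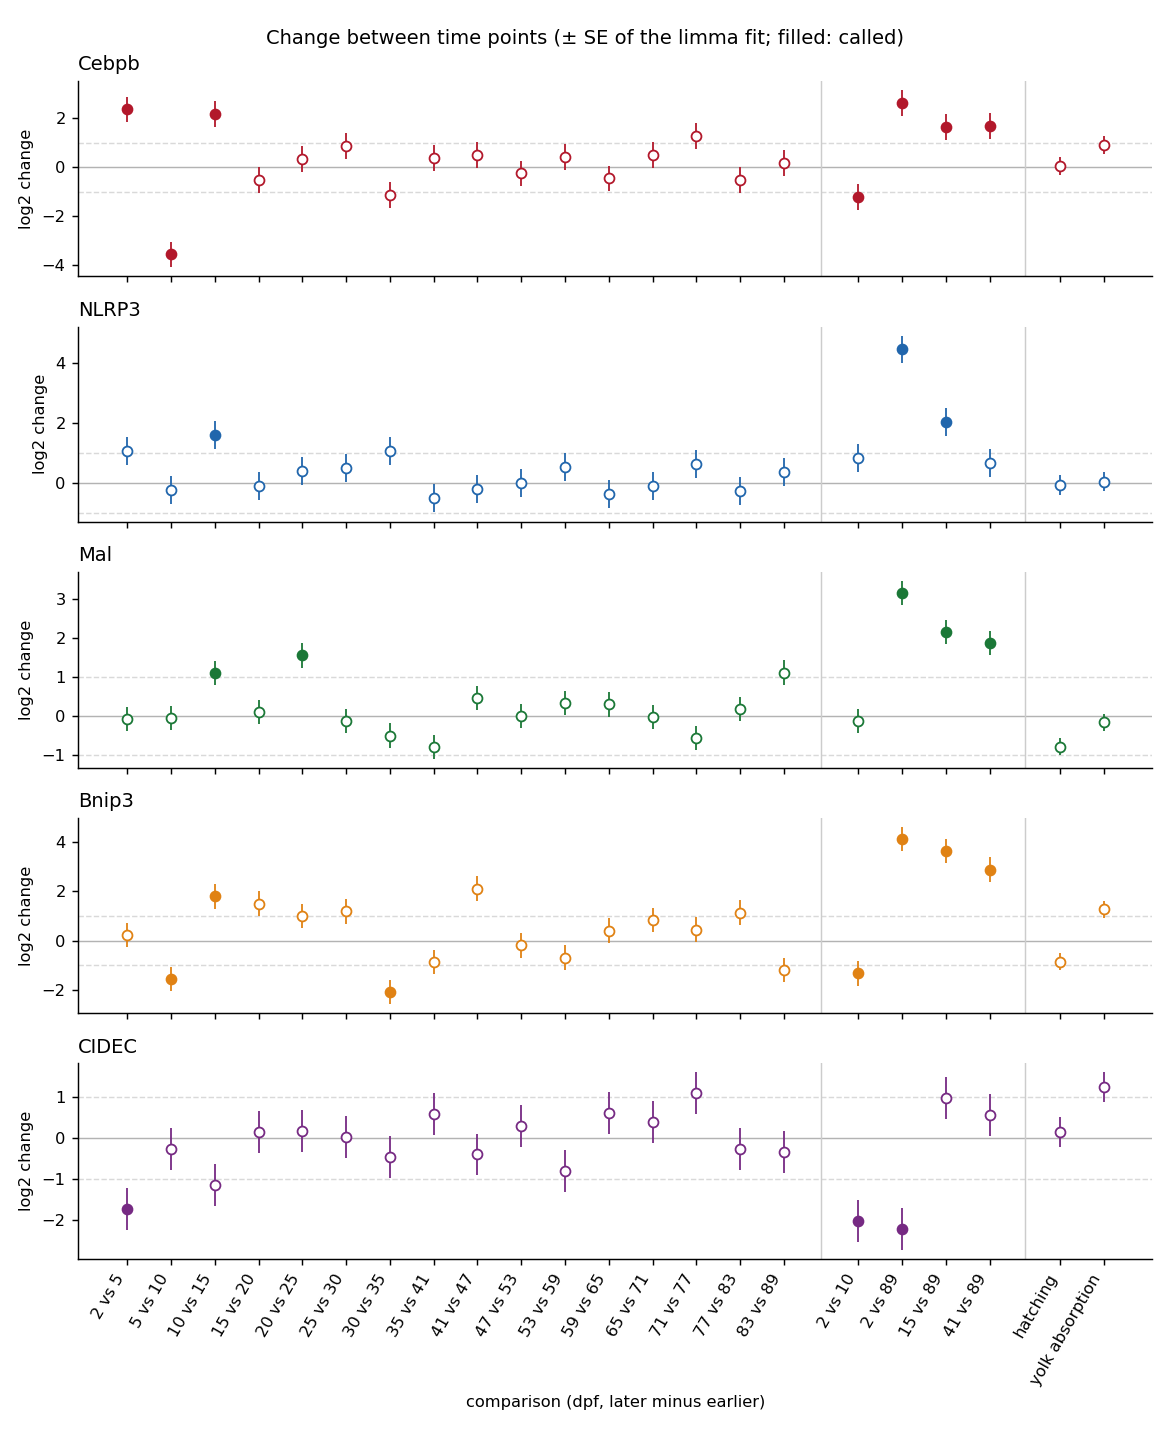
Log2 change of each of the 5 probes (y axis, later minus earlier, ± SE of the limma fit) in the 16 steps between neighbouring time points, the 4 longer spans, hatching and yolk absorption (x axis). Filled points passed an adjusted p of 0.05 and a 2-fold change, and dashed lines mark 2-fold; 8 of the 10 filled points among the steps lie between 2 and 15 dpf, and no point is filled for hatching or yolk absorption.

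Late in the series single individuals stood apart for Cebpb and CIDEC, a pattern noticed after the values were seen. Replicate 1 of 77 dpf had the highest ratio of all 51 arrays for Cebpb (3.49, against a mean of 0.76 in the other 2 individuals of that day), for the other CEBPB probe (3.15 against 0.59) and for NLRP3 (2.04 against 1.25). It also stood above both others for CIDEC (2.23 against 0.31), Cebpd (1.72 against -0.53) and CEBPD (1.47 against -0.61). For Mal it was the lowest of its day (-0.86 against 0.27). Of 14 probes for the 5 genes, their other probes and their relatives, it was above both others in 12 and below both in 1. The 14 hold more than 1 probe for several genes. The share of all tested probes above both others was not computed, so nothing is read from the count.

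Replicate 1 of 83 dpf showed a related set. It had the highest ratio of all 51 arrays for the 3 Bnip3 probes (2.08, 2.48 and 1.98) and for both delta probes, Cebpd (2.83) and CEBPD (1.998). Cebpb stood at 2.21 against 0.65 in the other 2 individuals and CIDEC at 1.90 against 0.07. It was above both others in 9 of the 14 probes and below both in 3, again without a share over all tested probes. Over all tested probes these arrays ranked 8 (77 dpf) and 11 (83 dpf) of 51 by their distance from the other individuals of their day. Both lay on slides 7 to 14, while the other individuals of their days lay on slides 1 to 6. A difference of these individuals and a difference of the slides cannot be told apart here.

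**Figure D4:**
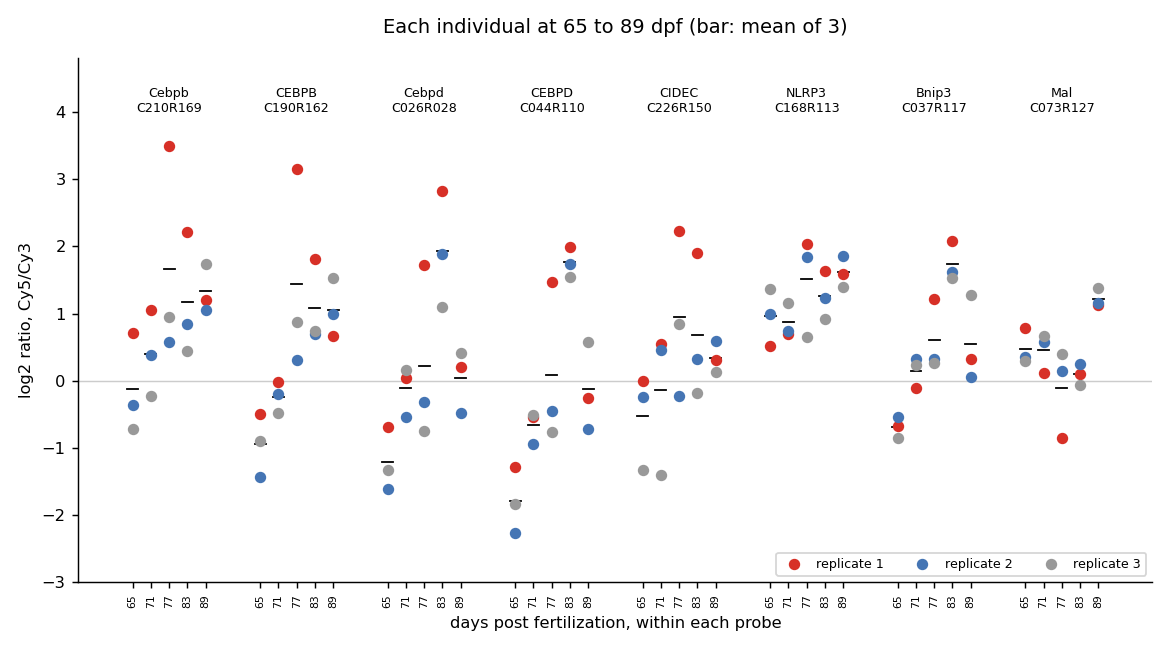
Log2 ratio of each individual (y axis) at 65, 71, 77, 83 and 89 dpf (x axis, repeated within each of 8 probes), with replicate 1 in red, replicate 2 in blue, replicate 3 in grey and a bar at the mean of 3. Replicate 1 of 77 dpf stands apart for Cebpb (3.49) and CEBPB (3.15), and replicate 1 of 83 dpf is highest for both Cebpd probes and Bnip3.

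The wider set of genes annotated to the induction of apoptosis gave more falls than rises between 2 and 10 dpf, though some of the calls lay under 500 on both sides. Of 11 other probes with this annotation, which include both further Bnip3 probes, 0 rose and 5 fell from 2 to 5 dpf, and 1 rose and 9 fell from 2 to 10 dpf. Of all probes, 39.8% were called from 2 to 5 dpf and 51.1% from 2 to 10 dpf, 24.4% as lower. In 3 of the 9 falls from 2 to 10 dpf, those of both Bnip3 probes and of Plg (C062R107), both sides were under 500. The list median of the 2 vs. 10 dpf changes was -2.09, against 0.01 over all probes tested. SMNDC1 (C173R108), a splicing factor, fell 14.2-fold from 2 to 10 dpf (-3.83 ± 0.34, adjusted p 1.31e-12), and SIVA1 (C056R113), a pro-apoptotic adaptor of TNF receptors, fell 5.47-fold from 2 to 5 dpf (-2.45 ± 0.23, adjusted p 2.16e-11). Plasminogen, Plg (C013R030), a liver-made blood protein, rose at least 23.6-fold from 2 to 89 dpf (adjusted p 1.97e-15), and STK17A (C021R061), a death-associated kinase, fell at least 3.01-fold (adjusted p 2.03e-09). From 10 to 15 dpf 2 of the 11 rose and 0 fell, against 12.0% of all probes called, and from 15 to 89 dpf 5 rose and 1 fell, against 31.5%. In each of these spans 1 of the calls was under 500 on both sides.

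The core machinery of apoptosis, a list of 15 probes of which 14 were tested, moved in both directions at the start. From 2 to 5 dpf 6 rose and 7 fell, from 5 to 10 dpf 2 rose and 3 fell, and from 10 to 15 dpf 1 rose and 2 fell, where 39.8%, 20.3% and 12.0% of all probes were called. NR13 (C076R137), a protective BCL2-family protein, had a spike at 5 dpf like that of Cebpb, with a rise of at least 4.02-fold (adjusted p 1.52e-06) and a fall of 6.50-fold by 10 dpf (adjusted p 0.000104). PDCD6 (C218R146), a calcium-binding protein, fell 13.1-fold from 2 to 5 dpf (adjusted p 2.2e-12), and PERP (C153R056), a membrane protein of desmosomes, rose at least 11.3-fold from 2 to 89 dpf (adjusted p 2.54e-16).

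Around hatching 0 of the 5 genes and 1.94% of all probes were called. Of the 14 tested probes of the machinery, only that of the protective gene BCL2L1 (C250R085), which encodes Bcl-X, was called. It fell 2.88-fold (log2 difference -1.53 ± 0.30, adjusted p 0.00111), with 1 of 3 individuals under 500 at 35 dpf, 3 at 41 dpf and 2 at 47 dpf. It had risen 3.14-fold from 10 to 15 dpf (1.65 ± 0.42, adjusted p 0.0054), and was 5.75-fold lower at 89 than at 15 dpf (-2.52, adjusted p 5.9e-06), with 2 of 3 individuals of 89 dpf under 500. From 41 to 89 dpf 0 of the 14 were called, against 3 of the 5 genes and 5 of the 11 probes annotated to the induction of apoptosis (4 higher and 1 lower) and 7.72% of all probes. The 4 higher probes were the 2 further probes of Bnip3, itself 1 of the 3 genes, and 2 probes of Plg. The 1 lower probe, of STK17A, was under 500 on both sides. All lists, those of leukocytes, myelin, lipid, and oxygen and mitophagy included, were drawn from probes that the study had listed as changed on these arrays, so their counts are descriptions.

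**Figure D5:**
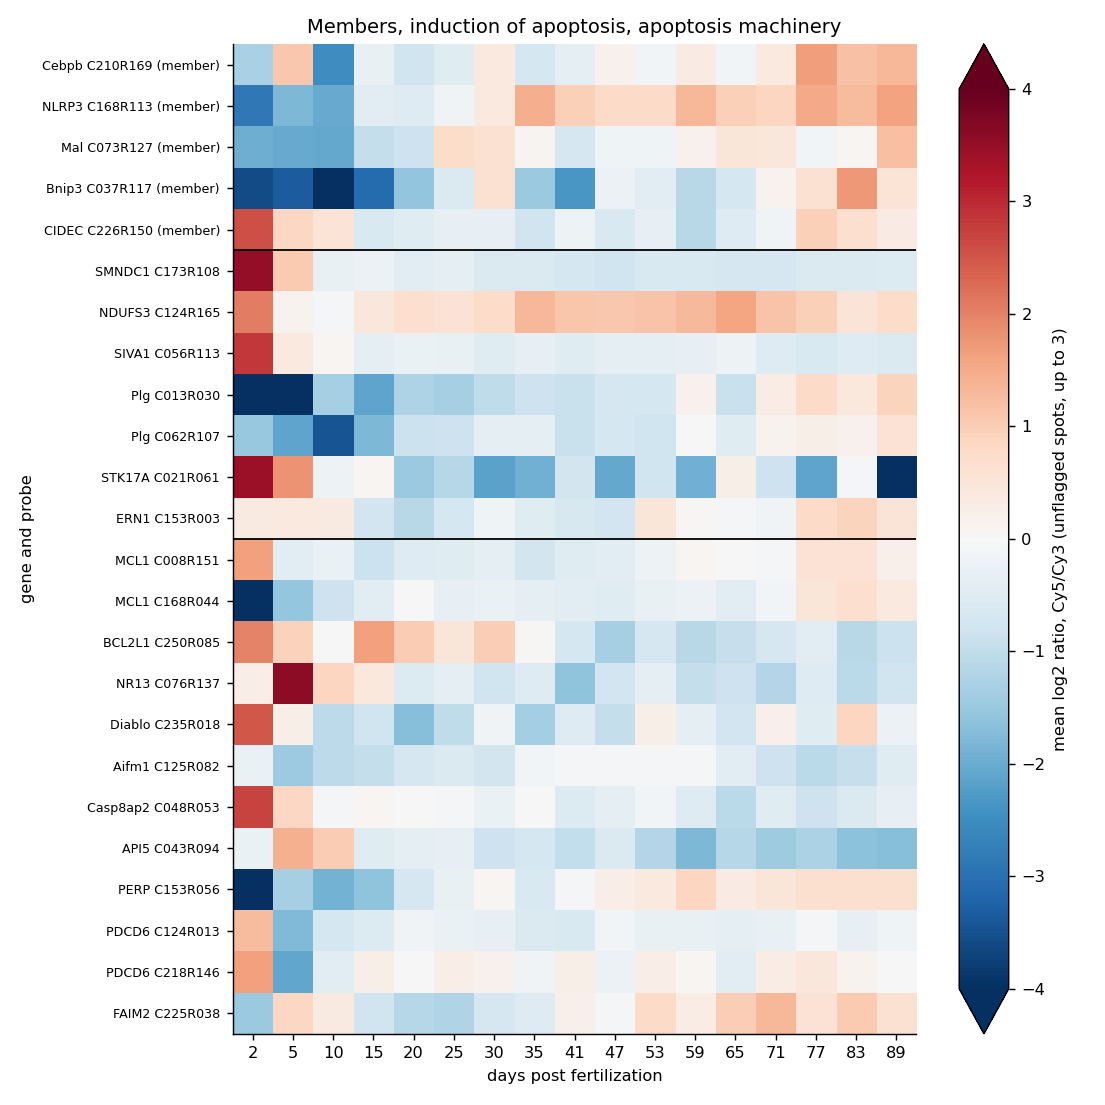
Heat map of the mean log2 ratio to the reference pool (colour, red above and blue below the pool, cut at 4 on either side) for each of the 17 time points (x axis) and each probe (y axis). The 5 members come first, then a selection of the tested probes annotated to the induction of apoptosis and of the apoptosis machinery. At 2 dpf some of the machinery probes are red. Others are blue, among them MCL1 (C168R044) and PERP (C153R056), as are NLRP3, Mal and Bnip3.

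Among 4304 tested probes with a description, those most like each gene in their 17 time point means were named, as a description in which all points share the same arrays and reference. For Cebpb they were the other CEBPB probe (r 0.92), prostaglandin D2 synthase (0.86), HAO2 (0.82), Ogfr (0.81) and Rdhe2 (0.81). For NLRP3 they were a synuclein (0.97), 2 probes of titin (TTN; 0.97 and 0.96), Col25a1 (0.97) and Muc2 (0.97). Among those named for Mal were F2 (0.90), Plec1 (0.90), naca (0.89) and C7 (0.89), of which F2 and C7 are blood proteins made in the liver. Bnip3 was most like its own 2 other probes, followed by TRIM63 (0.94), a ubiquitin ligase of muscle, ada (0.92) and a probe for the nuclear phosphoprotein p8 (0.91). For CIDEC they were ZNF436 (0.90), IFIH1 (0.89), a Tc1 transposase (tc1a; 0.89), PPP1R15A (0.89) and retsat (0.89). Among the 5 genes themselves r was highest between Bnip3 and Mal (0.85) and between NLRP3 and Mal (0.84), and CIDEC had r values of -0.57 with NLRP3 and -0.01 with Cebpb.

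The values that the authors deposited for these 5 probes had the same course. Their slopes on the log2 ratios given here were 0.978 to 1.01 over 51 arrays, and no value differed by more than 0.099 once each probe was set to a median of 0. On that scale, where 0 is the median of the 51 arrays and not the pool, Bnip3 stood at -4.04 ± 0.24 at 10 dpf and 2.51 ± 0.30 at 83 dpf, Cebpb at 1.17 ± 0.10 at 5 dpf and -2.43 ± 0.48 at 10 dpf, and CIDEC at 2.73 ± 0.26 at 2 dpf.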

How the data were processed

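RNA of 51 whole salmon, 3 individuals at each of 17 time points, was hybridized with a common reference pool on 2-colour arrays of 43689 probes on 14 slides. The authors quantified the scans with ImaGene and deposited, for each spot, background-corrected median intensity in both channels, on a linear scale, with a flag. They also deposited log2 ratios made in GeneSpring, with signals raised to at least 1, Lowess normalization and each probe centred on its median over the samples. In these, column medians were -0.036 to 0.0265, and their r with the centred log2 ratios of Cy5 to Cy3 was 0.987 to 1 (median 0.998), which sets scale and direction. Genome builds are not given in the sources used here, and probe names come from the supplementary lists of the study.

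From the intensities, signals below 1 were set to 1 and log2 ratios were normalized by loess within arrays (limma 3.58.1, R 4.3.3), with control spots and flagged spots (2.35%) at weight 0. All arrays had the same dye orientation, so a dye effect is not balanced out. The 20964 probes whose Cy5 signal reached 500, unflagged, in the 3 individuals of some time point entered 1 limma fit of 51 arrays with a mean per time point, chosen in place of the methods' t-test, which was an alternative. Calls needed a Benjamini-Hochberg adjusted p under 0.05 and 2-fold. Where all individuals of 1 side were under 500, the fold is a lower bound on the change in Cy5, from loess and Aquantile normalized Cy5 with each dim array set to its lowest signal of at least 500 or its own, if higher. The adjusted p beside it tests the fitted ratio of Cy5 to Cy3, so the bound need not lie below the fitted fold. For MPO (C032R100) from 10 to 15 dpf it was 14.1-fold, against a fitted 11.55-fold. The part of dye bias in these bounds was not tested. The number of arrays limits the precision. Hatching compares 30 and 35 with 41 and 47 dpf, and yolk absorption 59 and 65 with 71 and 77 dpf. The fit was tested on simulated data. Figures used Python 3 and matplotlib.

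The 5 probes and all lists were chosen with earlier results of these data known. Named genes were the 5, the other probes and relatives of their genes, the 5 probes most like each, and the largest fitted rise and fall of each list; further genes of the lists (SMNDC1, SIVA1, NR13, BCL2L1, Cd74, Egln3, MAP1LC3B and the probe C159R023 of ADFP) were chosen after their values were seen. Spots flagged in lists were left out of their means. Alternatives were run for the 5 genes and for the summed calls of the lists, not for each named probe of the lists. Some genes that this rule names are not reported here.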

Additional observations from a re-analysis of the deposited data

How the results depend on the processing

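Of the 25 called changes of the 5 genes, none reversed under any alternative, and 9 were called under every setting that kept all arrays and used no block. The 10 calls between neighbouring time points became 6 with Cy5 alone, 4 with the methods' t-test after Benjamini-Hochberg and 4 with the slide as a fixed block, and the 15 over longer spans became 8 with that adjusted t-test. For yolk absorption, 0 became 2 at an unadjusted p of 0.01 and 1 with the methods' t-test, and for hatching 0 became 1 without a minimum fold. The 102 calls of the lists between neighbouring time points became 64 with the slide as a fixed block, and the list alternatives were chosen after seeing the data. Without replicate 1, 2 or 3 of every time point, all 5 genes still differed over time (5 to 5), and the counts were 3 to 7 for neighbouring time points, 12 to 13 for longer spans, 0 to 0 for hatching and yolk absorption and 67 to 87 for the lists. Without a single array they were 7 to 11, 13 to 15, 0 to 1 and 0 to 1, with hatching at 1 without replicate 1 of 30 dpf and yolk absorption at 1 without replicate 3 of 71 dpf or replicate 2 of 77 dpf.

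Fits without a filter kept 22 of the 25 calls, fits of the arrays compared alone 22, a filter on 2 of 3 arrays, a floor of 50 and the authors' deposited values 24 each, and the slide as a random block (correlation 0.138) 25. The Cebpb difference between 2 and 10 dpf was lost in all of these but the fits of the arrays compared alone and the random block. The filter on all 51 arrays was not run because 0 of the 5 genes pass it. With the replicate block every count for the 5 genes was the same (5, 10, 15, 0 and 0), 103 list calls were made, and no call of a gene changed. The replicate numbers went with a weak likeness between samples. Over 18492 probes the mean r of 408 same-number pairs was 0.0416 (lowest -0.273, 79 over 0.1), against -0.0206 for different numbers. Of the 51 samples, 37 correlated best with their own number. Replicate 1 arrays lay mostly on slides 7 to 14 and replicate 3 arrays mostly on slides 1 to 6. Leaving out a replicate number thus also changed the mix of dimmer and brighter slides. Between different time points the mean r was 0.058 on the same slide and -0.00312 on different slides. The part of the slides in the likeness of same-number samples was not tested, nor was what else these samples share. The 3 individuals per time point and the dim Cy5 signals of Bnip3 and CIDEC limit what these arrays can show.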

Other observations

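Single individuals also stood apart in the middle of the series, as was noticed after the values were seen. At 20 dpf replicate 3 had a Bnip3 ratio of -0.23 against a mean of -2.27 in the other 2 individuals, Cebpb at 0.24 against -1.32 and NLRC5 at -0.65 against -3.56, while Mal stood at -1.64 against -0.43 and NLRP3 at -1.27 against -0.16. It was above both others in 9 of 14 probes and below both in 5, and its array had the highest median Cy5 signal of the 51 (601). At 30 dpf replicate 1 was below both others in 9 of the 14 probes, with Bnip3 at -0.86 against 1.34, NLRP3 at -1.0 against 1.07 and CEBPA at -1.48 against 0.49. Over all tested probes these arrays ranked 5 and 6 of 51 by their distance from the other individuals of their day. The 20 dpf array lay on slide 3 and the others of its day on slides 11 and 12, so individual and slide cannot be told apart. The 30 dpf array lay on slide 8 and the others of its day on slides 4 and 14. What set these arrays apart was not tested, and the share of all tested probes that stood apart in this way was not computed.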
